A study of Sus scrofa with 6 samples.

Results

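ssc-miR-21 and ssc-miR-31, called miR-21 and miR-31 from here on, are a pair of pig microRNAs (miRNAs, short RNAs that guide repression of messenger RNAs) described from the cells that surround the oocyte in the ovarian follicle. They were taken by name from small RNA libraries of pig oocytes and are 2 of the 326 mature miRNAs listed and 2 of the 104 with enough reads to test. The libraries came from denuded oocytes, that is, oocytes stripped of their cumulus cells, of prepubertal gilts. The LO group holds oocytes of large follicles, 3 to 6 mm across, drawn through a 20-gauge needle on a 10 mL syringe. The SO group holds oocytes of small follicles, below 2 mm, drawn through a 23-gauge needle on a 5 mL syringe. Each group had 3 libraries, called biological replicates by the labels, and follicle size and aspiration gear differed together between the groups. The labels do not say how many animals or oocytes went into a library, so p-values measure the spread between these libraries.

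A miRNA finds its targets mainly through its seed, bases 2 to 8 counted from the 5′ end. miR-21 represses messages of growth and death control such as that of PDCD4, and in mouse granulosa cells, the somatic cells lining the follicle, it rises after luteinizing hormone and favours cell survival. miR-31 is best known from human cancer cells, where it represses genes of adhesion and migration. In the follicle the cumulus cells that enclose the oocyte are granulosa-derived and reach it through fine projections, and they are removed when an oocyte is denuded.

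The mature sequences are shown, as deposited with T for U and with the seed in capitals, because they set which reads can be counted under each name and which targets each miRNA can share. miR-202-5p, an arm of the gonadal miRNA miR-202, is added because its level followed that of miR-21.
miR-21: tAGCTTATcagactgatgttga
miR-31: aGGCAAGAtgctggcatagctg
miR-202-5p: tTCCTATGcatatacttcttt
No other of the 326 listed miRNAs shares the seed of miR-21, of miR-31 or of miR-202-5p. The nearest listed name to miR-21 or to miR-31 is 8 single-base edits away, and the pair are 13 edits from each other. By base content they differ, with 36.4% G and C in miR-21 and 54.5% in miR-31, both 22 bases long. In the RefSeq gene table of assembly Sscrofa11.1, which is not the build of the deposited files, the genes MIR21 and MIR31 lie on different chromosomes. MIR21 stands there between the protein-coding genes PTRH2 and TUBD1, and MIR31 between MTAP and IFNE, an interferon gene.

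Both miRNAs were well measured, in the upper part of the profile, but far below miR-205, the most abundant miRNA of these oocytes. miR-21 had 415, 102 and 284 reads per 1000000 (RPM) in LO replicates 1 to 3, against 309, 179 and 167 RPM in SO replicates 1 to 3. These values rested on 239, 47 and 405 reads in LO and on 592, 344 and 365 reads in SO. LO replicate 1 was the highest library of all and LO replicate 2 the lowest, so the LO range enclosed the whole SO range. The 95% exact Poisson interval was 364 to 471 RPM in LO replicate 1 and 74.8 to 135 RPM in LO replicate 2, which shows that these replicates were apart by more than counting error.

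miR-31 had 476, 147 and 306 RPM in LO replicates 1 to 3, against 206, 204 and 116 RPM in SO replicates 1 to 3. The reads behind them were 274, 68 and 436 in LO and 394, 391 and 254 in SO. LO replicates 1 and 3 were above every SO library, while LO replicate 2 lay between SO replicate 3 and the other SO libraries, so the groups overlapped. Ranges of LO and SO lay apart for 3.85% of the 104 tested miRNAs, and neither miR-21 nor miR-31 was among them. Intervals here cover counting error only. The labels do not say whether PCR copies of 1 molecule were merged, so reads may not be separate molecules.

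**Figure D1:**
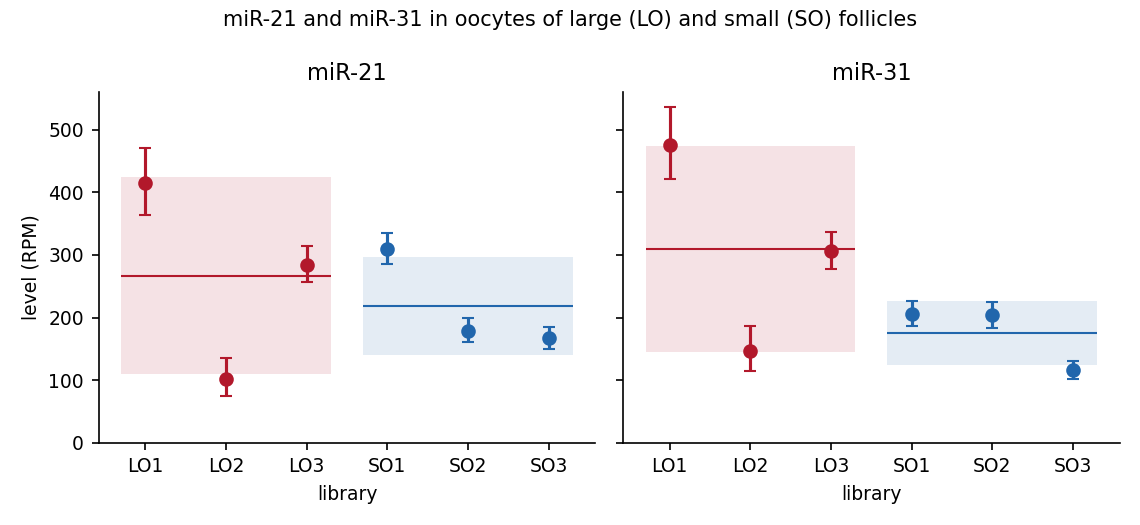
Level of miR-21 (left) and miR-31 (right) in RPM in each library, LO1 to LO3 in red and SO1 to SO3 in blue (LO and SO replicates 1 to 3); bars on points are 95% exact Poisson intervals, lines are group means and shading is 1 SD. Within LO, replicate 1 is highest and replicate 2 lowest for both miRNAs, and the groups overlap in both panels.

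In the order of mean levels over the 6 libraries miR-21 and miR-31 stood side by side at places 15 and 16. miR-21 averaged 243 ± 114 RPM and miR-31 242 ± 131 RPM (SD, n = 6). Their neighbours were miR-26a at 275 ± 72.7 RPM and miR-7 at 260 ± 93.6 RPM above them, and miR-30d at 227 ± 42.5 RPM and miR-125a at 202 ± 137 RPM below. None of these neighbours differed from either by more than the spread over libraries. Counting efficiency differs between miRNA sequences, so an order between names holds for reads and not for molecules.

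Within libraries the order of the pair changed. miR-31 was the more abundant in all 3 LO libraries, where it held places 11, 15 and 15 and miR-21 places 14, 20 and 16. In SO replicates 1 to 3 miR-21 held places 13, 18 and 18 and miR-31 places 20, 17 and 21, so miR-31 led in replicate 2 alone. Set against miR-205, the mean level of miR-21 was 3.10% of that of miR-205 in LO and 2.22% in SO, and that of miR-31 was 3.59% in LO and 1.78% in SO.

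The first comparison asked whether either miRNA differed between oocytes of large and small follicles. Neither did so at a false discovery rate (FDR) of 0.05. The limma fit on log2(RPM + 1) was one in which 0 of the 104 tested miRNAs (0%) were called, while 4 had an unadjusted p under 0.05. On recovered reads, edgeR called 2 of the 104 miRNAs, and neither member was among them. DESeq2 called 0 of the 242 miRNAs with at least 1 read. The mean level of miR-21 was 267 ± 157 RPM in the LO libraries and 218 ± 78.8 RPM in the SO libraries (SD, n = 3 each). This gave a log2 fold change of 0.13 (SE 0.47, limma FDR 0.936), below the median of 0.29 over all tested miRNAs, and it was higher than every SO library in 1 of 3 LO libraries. The sign turned with the scaling, to -0.12 with TMM (trimmed mean of M-values, which sets the bulk of miRNAs equal between libraries).

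The mean level of miR-31 was 310 ± 164 RPM in the LO libraries and 175 ± 51.2 RPM in the SO libraries (SD, n = 3 each). The log2 fold change of 0.71 (SE 0.48, limma FDR 0.780) held place 6 of the 104 miRNAs by p and place 16 by size, and 2 of 3 LO libraries exceeded every SO library. With TMM it was 0.47 (SE 0.27, limma FDR 0.452), beside a median of 0.05 over all tested miRNAs. 1 library decided the call. Without LO replicate 2, the library with the fewest reads and the lowest miR-21, limma gave miR-31 a log2 fold change of 1.17 (FDR 0.0233) among 18 calls, and the median of all tested miRNAs was then 0.62. With TMM and without that library miR-31 stood at 0.52 (FDR 0.236) and the median at -0.01. Without LO replicate 1 the log2 fold change of miR-31 was 0.32 and that of miR-21 -0.30.

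**Figure D2:**
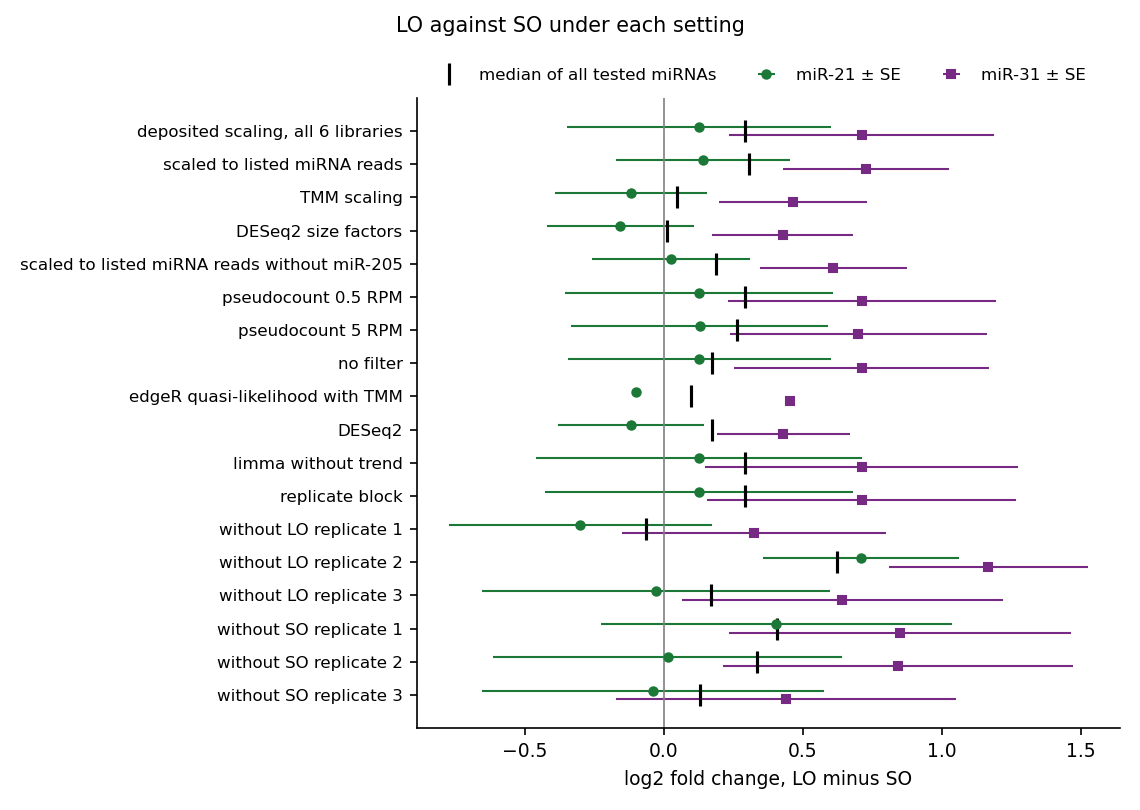
log2 fold change of miR-21 (green circles) and miR-31 (purple squares), LO minus SO, on the x axis under each setting listed down the y axis, with SE where the tool gives one; black ticks are the median of all tested miRNAs. miR-31 is to the right of 0 and of the median in every setting shown, and miR-21 is on both sides of 0, from -0.30 to 0.71.

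The ratio of the pair does not depend on the library total. Per read of miR-21 there were 1.15, 1.45 and 1.08 reads of miR-31 in LO replicates 1 to 3, against 0.666, 1.14 and 0.696 in SO replicates 1 to 3. SO replicate 2 lay among the LO libraries, and the 95% exact interval of the ratio ended below 1 in SO replicate 1 (0.584 to 0.757) and SO replicate 3 (0.591 to 0.819). The mean ratio was 1.22 ± 0.197 over the LO libraries and 0.833 ± 0.264 over the SO libraries (SD, n = 3 each). The difference was 0.59 on the log2 scale and was not separated from the spread between libraries (exact two-sided permutation p = 0.2, where 3 against 3 cannot go below 0.1).

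The second comparison asked whether miR-21 and miR-31 rise together from library to library, as would be looked for in RNA of 1 shared source. On the deposited scaling their levels ran in nearly the same order, though not past the threshold once adjusted. Over the 6 libraries Pearson's r of log2(RPM + 1) was 0.82 (exact permutation p = 0.0403) and Spearman's rho 0.89 (exact permutation p = 0.0333). Adjusted over the 13 relations computed, these p-values were 0.190 and 0.108. Without LO replicates 1 and 2, the libraries farthest from the median of miR-21, r was 0.71. Within LO r was 0.99 and within SO 0.60, each over only 3 libraries.

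Most other tested miRNAs rose and fell with the pair on the same scaling. The median r with all 103 other tested miRNAs was 0.73 for miR-21 and 0.79 for miR-31, and 44 of them for miR-21 and 46 for miR-31 had r above 0.8. By likeness to miR-21, miR-31 held place 41 of 103, and by likeness to miR-31, miR-21 held place 44. The points share a library total, and the listed miRNAs took from 1.68% of it in LO replicate 2 to 3.03% in LO replicate 1. With TMM r was 0.02 (exact permutation p = 0.967), and with DESeq2 size factors r was -0.22. Still with TMM, r was 0.64 without LO replicate 2 and SO replicate 1, the libraries then farthest from the median of miR-21, 0.81 within LO and 0.07 within SO, each over 3 or 4 libraries. With listed miRNA reads as the total it was 0.61 (exact permutation p = 0.183).

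**Figure D3:**
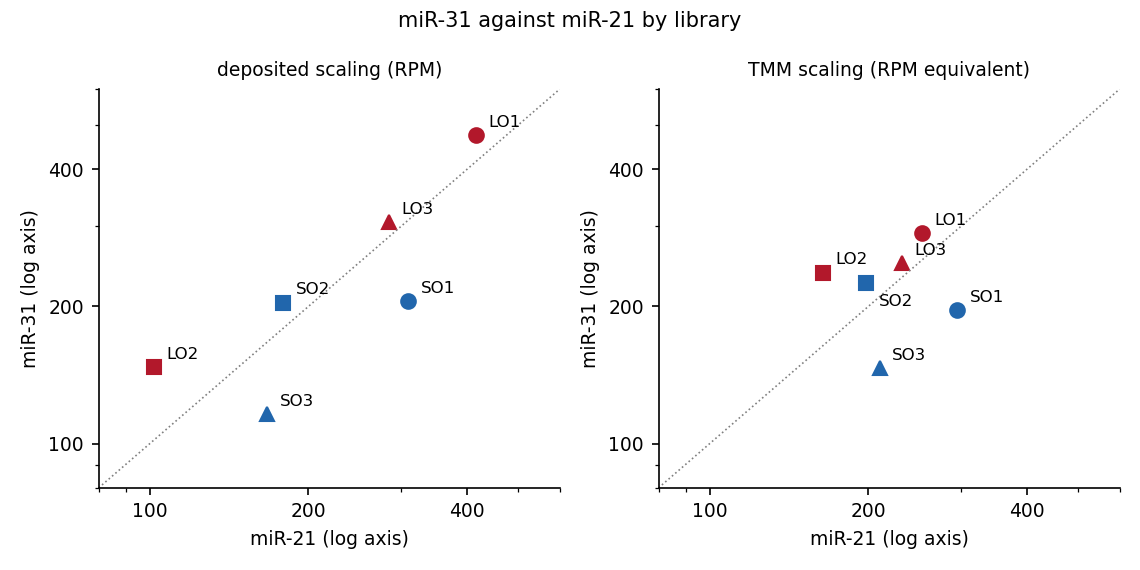
miR-31 (y axis) against miR-21 (x axis) by library, both on log axes, as deposited in RPM (left) and with TMM scaling in RPM equivalents (right); LO1 to LO3 are red, SO1 to SO3 blue, and the dotted line marks equal levels. The libraries run along the line on the left (r = 0.82) and show no common trend on the right (r = 0.02).

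With TMM both miRNAs became steadier. The coefficient of variation of miR-21 was 58.9% in LO and 36.1% in SO as deposited, beside medians of 51.2% and 25.6% over the tested miRNAs. With TMM that of miR-21 was 21.4% in LO and 22.5% in SO, beside medians of 31.9% and 21.04%. miR-31 gave 53.0% in LO and 29.2% in SO as deposited, and 10.6% in LO and 21.04% in SO with TMM. In LO with TMM, miR-31 held place 97 of 104 when the tested miRNAs were ordered from the most to the least variable.

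Over the 6 libraries miR-21 had a closer companion in miR-202-5p. miR-202 is known from mouse and other vertebrate gonads, where it is made in somatic cells of testis and ovary, and oocytes hold it too. miR-202-5p had 247, 60.7 and 169 RPM in LO replicates 1 to 3, against 214, 124 and 100.1 RPM in SO replicates 1 to 3. Its libraries stood in the same order as those of miR-21, with LO replicate 1 highest and LO replicate 2 lowest. Per read of miR-21 there were 0.594, 0.596 and 0.593 reads of miR-202-5p in LO and 0.693, 0.689 and 0.600 in SO. The highest of these 6 ratios was 1.17 times the lowest, while miR-21 itself ranged 4.08-fold in RPM as deposited and 1.80-fold with TMM. The exact intervals of all 6 ratios overlapped. The ratio of miR-31 to miR-21 ranged 2.17-fold over the same libraries.

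The summed arms of miR-202 were 1 of the 13 relations, a list made with earlier results of these data known, and miR-202-5p was singled out here after its values were seen, so the p-values are not independent evidence. The sum followed miR-21 with r = 0.99 (exact permutation p = 0.00139, adjusted over 13 relations 0.0181) and rho = 1 (exact permutation p = 0.00278, adjusted 0.0361) over the 6 libraries. Without LO replicates 1 and 2 r was 0.97, and within the groups it was 0.997 in LO and 0.989 in SO, over 3 libraries each. With TMM r was 0.93 (exact permutation p = 0.00972, adjusted 0.126) and rho was 0.83 (exact permutation p = 0.0583, adjusted 0.379). Without LO replicate 2 and SO replicate 1, r with TMM fell to 0.72, beside 0.64 for miR-31 with miR-21. Of the 103 other tested miRNAs miR-202-5p held place 3 in likeness to miR-21 as deposited and place 1 with TMM, with DESeq2 size factors and with listed miRNA reads. The sum is carried by miR-202-5p, with 1276 reads over the libraries against 61 of miR-202-3p. For miR-202-3p, r with miR-21 was -0.02 as deposited, place 101 of 103, and -0.63 with TMM, place 100. With 61 reads over the 6 libraries its counting error is large, so these values cannot tell whether this arm follows miR-21. For miR-31 the summed arms gave r = 0.81 as deposited (exact permutation p = 0.0569) and r = -0.01 with TMM (exact permutation p = 0.981).

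**Figure D4:**
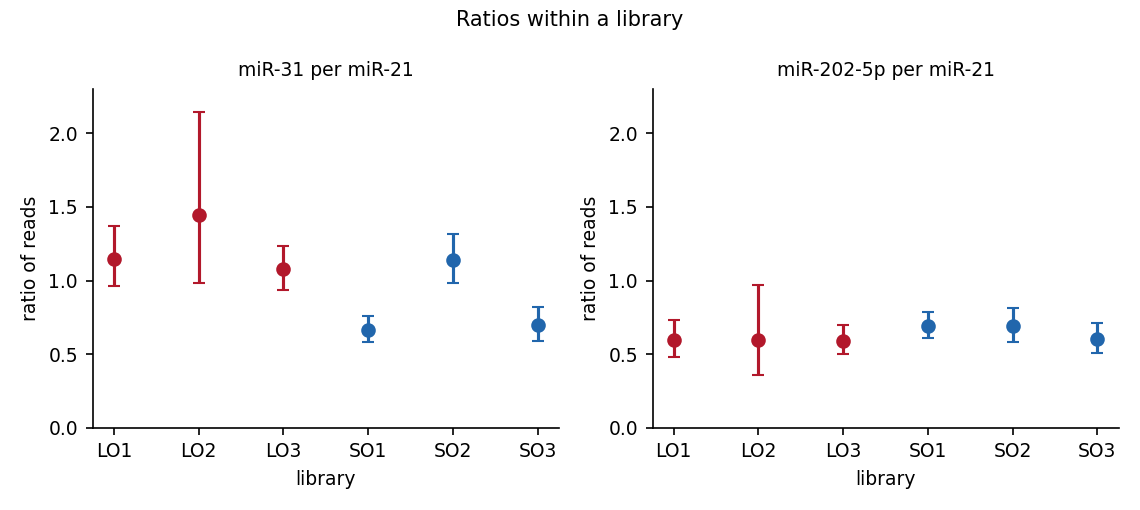
Reads of miR-31 (left) and of miR-202-5p (right) per read of miR-21 in each library, LO in red and SO in blue, with 95% exact binomial intervals. The ratio of miR-202-5p to miR-21 stays between 0.593 and 0.693, and that of miR-31 to miR-21 runs from 0.666 to 1.45.

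The miRNAs most like each member were named by the highest Pearson r of log2(RPM + 1) over the 6 libraries. For miR-21 they were let-7i, miR-16, miR-202-5p, miR-27b-3p and miR-34a, with r from 0.96 to 0.99. let-7i had 74.7, 32.5 and 63.9 RPM in LO replicates 1 to 3, against 65.8, 46.4 and 48.4 RPM in SO. It belongs to the let-7 family, which accumulates as cells differentiate. miR-16, a cell cycle miRNA and the most abundant of these 5, had 4029, 2204 and 3685 RPM in LO, against 3743, 2790 and 2666 RPM in SO. The likeness of these 2 to miR-21 did not hold with TMM. There r was 0.23 for let-7i (place 35) and -0.25 for miR-16 (place 72). For miR-202-5p, miR-27b-3p and miR-34a it was 0.95, 0.84 and 0.75 with TMM.

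For miR-31 the most alike were miR-23b, miR-497, miR-186, miR-24-3p and let-7a, with r of 0.98 to 0.99. miR-23b had 122, 32.5 and 80.05 RPM in LO replicates 1 to 3, against 58.0, 55.8 and 31.5 RPM in SO. miR-24-3p had 109, 32.5 and 86.4 RPM in LO, against 48.6, 56.3 and 29.3 RPM in SO. Both shared with miR-31 a high in LO replicate 1 and lows in SO replicate 3 and LO replicate 2. In mammals miR-23b, miR-27b and miR-24 are made from 1 gene cluster. miR-27b-3p, however, was in the first 5 for miR-21. For miR-31 it held place 32 (r = 0.89), and place 42 with TMM (r = 0.35). No name was in the first 5 of both members. With TMM, miR-202-5p, miR-27b-3p, miR-32, miR-190a and miR-29b led for miR-21 (r from 0.82 to 0.95), and miR-152, miR-23b, miR-374a-3p, miR-24-3p and miR-186 for miR-31 (r from 0.91 to 0.96). These likenesses are descriptions over 6 points and carry no test.

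**Figure D5:**
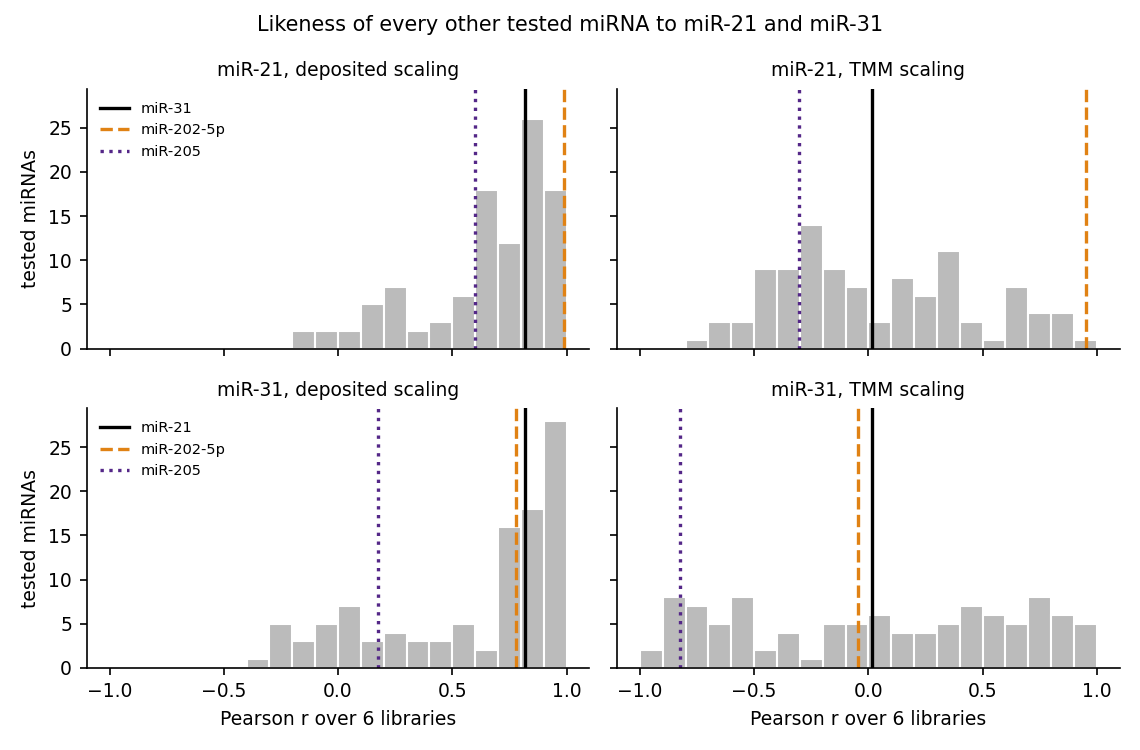
Number of the other tested miRNAs (y axis) by Pearson r over the 6 libraries (x axis) with miR-21 (top) and miR-31 (bottom), as deposited (left) and with TMM (right); lines mark the other member of the pair (solid black), miR-202-5p (dashed orange) and miR-205 (dotted purple). As deposited most miRNAs lie to the right of 0 (median r 0.73 and 0.79). With TMM miR-202-5p stays near the right edge for miR-21 (0.95) while miR-31 is at 0.02.

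miR-205, which holds the largest share of reads, showed no rise with the pair that held on both scalings. Its r with miR-21 was 0.60 as deposited (exact permutation p = 0.210) and -0.30 with TMM (exact permutation p = 0.551). With miR-31 it was 0.17 as deposited (exact permutation p = 0.728) and -0.82 with TMM (exact permutation p = 0.0556, adjusted 0.361). The rho of miR-205 with miR-31 under TMM was -0.94 (exact permutation p = 0.0167, adjusted 0.217). Under TMM their r was -0.99 within LO and -0.98 within SO, over 3 libraries each. By likeness to miR-31 under TMM, miR-205 held place 100 of 103. let-7i at -0.87, miR-489 at -0.92 and miR-10b at -0.97 stood lower, and miR-30a-5p and miR-30d, both at -0.82, just above. Against the number of listed miRNA reads in a library, r was 0.38 for miR-21 and -0.09 for miR-31 (exact permutation p = 0.476 and 0.867).

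The label of the pair as follicle cell miRNAs was set against the list of granulosa and cumulus markers, which also holds miR-202-3p, miR-202-5p, miR-132, miR-212, miR-224 and miR-383. All 8 were listed and 4 had enough reads to test, namely the pair and the arms of miR-202, and 0 of these passed FDR 0.05 in either direction. miR-202-3p had a mean of 12.1 ± 7.48 RPM over the LO libraries and 6.26 ± 1.05 RPM over the SO libraries (SD, n = 3 each), with a log2 fold change of 0.66 (SE 0.73, limma FDR 0.780). miR-202-5p had a mean of 159 ± 93.4 RPM over the LO libraries and 146 ± 60.2 RPM over the SO libraries, with a log2 fold change of -0.02 (SE 0.50, limma FDR 0.985). The remaining 4 were near 0: miR-132 and miR-212, which gonadotropins raise in rodent granulosa cells, had 10 and 2 reads over all libraries, and miR-224 and miR-383 had 1 read each. The list therefore rests on miR-21, miR-31 and miR-202-5p, and these data do not place the pair in a cell type. In bulk libraries such as these, fewer cells of a type and less RNA per cell cannot be told apart.

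Marker lists of other cells were measured beside the pair, as shares of the listed miRNA reads. The granulosa and cumulus list took 3.82%, 1.93% and 2.56% in LO replicates 1 to 3, against 2.55%, 2.197% and 1.68% in SO, and miR-21 and miR-31 alone 2.94%, 1.48% and 1.98% in LO, against 1.79%, 1.63% and 1.22% in SO. Theca, stroma and smooth muscle markers, 3 of 9 tested and with miR-214 at 0, took 0.252% to 0.438% in LO and 0.194% to 0.349% in SO. Endothelial markers, 1 of 2 tested, took 0.0306% to 0.0645% in LO and 0.0137% to 0.0489% in SO. Their tested members did not pass FDR 0.05: miR-143-3p had a log2 fold change of 0.85, miR-199a-3p 0.51, miR-199b-3p -0.18 and miR-126-3p 0.40 (limma FDR from 0.780 to 0.936).

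Blood cell markers, of which 5 were listed and 0 tested, took 0.0212% to 0.0645% in LO, against 0.00890% to 0.0196% in SO replicates 2 and 3 and 0.199% in SO replicate 1, led there by miR-142-3p, a miRNA of white blood cells, at 41.8 RPM. SO replicate 1 was also the SO library with the most miR-21, as it was for let-7i, miR-16, miR-202-5p, miR-27b-3p and miR-34a. That library was likewise the highest of SO for miR-31, let-7a, miR-186 and miR-23b, while miR-24-3p and miR-497 were highest in SO replicate 2. Listed miRNAs took 2.88% of the library total in SO replicate 1, against 2.34% and 2.33% in SO replicates 2 and 3. The r of miR-21 with the blood list was -0.64 within LO and 0.96 within SO, over 3 libraries each. Muscle markers, 0 of 4 tested and with miR-133b at 0, took 0.0329% to 0.0774% in LO and 0.0157% to 0.0222% in SO. The liver miRNA miR-122 took 0.0258% to 0.0658% in LO and 0.00890% to 0.0903% in SO, with a log2 fold change of 0.17 (SE 0.71, limma FDR 0.936).

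The r of miR-21 was 0.69 with the theca, stroma and smooth muscle list (exact permutation p = 0.135). It was 0.51 with the endothelial list (exact permutation p = 0.308) and 0.30 with the blood list (exact permutation p = 0.585). For miR-31 the same lists gave r = 0.79 (exact permutation p = 0.0583), 0.72 (exact permutation p = 0.104) and 0.06 (exact permutation p = 0.900). With TMM the values for the theca, endothelial and blood lists were -0.11, -0.04 and 0.36 for miR-21. For miR-31 they were 0.31, 0.56 and -0.17, so the highest of these 6 was 0.56. As deposited, without LO replicate 1 and SO replicate 3 (the libraries farthest from the median of miR-31), miR-31 gave r = 0.04 with the theca list. With the endothelial list it gave -0.24, so those relations rest on these libraries. Leaving out any single library still kept r at 0.55 or more for theca and 0.49 or more for endothelial. LO replicates 1 and 2 were the libraries farthest from the median of miR-21 as deposited. Without them r of miR-21 was 0.95 with the theca list, 0.87 with the endothelial list and 0.77 with the blood list, over 4 libraries. With TMM and without LO replicate 2 and SO replicate 1, then the farthest, these values were 0.75, 0.54 and 0.65, also over 4 libraries. The part of RNA from other cell types in the levels of miR-21 and miR-31 was not tested.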

How the data were processed

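Per the labels' protocols, RNA was isolated with mirVana and small RNA libraries were built with the QIAseq kit; groups and replicate numbers came from the sample titles. Cutadapt, bcl2fastq, edgeR, Bowtie2 2.2.2 and the build Sscrofa10.2 are listed, without their roles, in the submitters' processing notes. The column is headed TPM, but all values of a library were whole multiples of the same step for short and long sequences alike, so the deposited values were read as RPM of a total set by the authors. Reads were recovered by this step and came out whole for 100% of values above 0 (tolerance 0.01 read). Listed miRNAs held 7755 to 42541 reads in LO and 44964 to 55230 in SO, and 1 read was worth 0.702 to 2.17 RPM in LO and 0.457 to 0.522 RPM in SO. The labels do not say whether molecular identifiers were counted. No 2 replicates agreed within sampling noise (chi-square per degree of freedom 2.85 to 19.9).

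As the values are RPM, log2(RPM + 1) was fitted in R 4.3.3 with limma 3.58.1, using an intensity trend and a single group term. P-values were Benjamini-Hochberg adjusted over the 104 miRNAs passing filterByExpr on recovered reads. Fold changes on this scale understate those of low miRNAs, and limma's SE follows the trend with abundance. edgeR 4.0.16 (quasi-likelihood, TMM) and DESeq2 1.42.0 on recovered reads were alternatives, beside other scalings, pseudocounts of 0.5 and 5 RPM, no filter, no trend, each library left out in turn, and a block for the replicate number. DESeq2 and the fit with no filter took all 242 miRNAs with at least 1 read. TMM combined with leaving out a library, the choice of miR-202-5p for description and the alternatives for miR-202 were chosen after seeing the data. Scaled values were brought back to the mean RPM before the pseudocount of 1. Correlations had exact two-sided tests over all 720 orders of the libraries, adjusted over 13 relations. The fits were tested on simulated data. The miRNAs named were the pair, the 5 most like each by r, the 2 next above and below each in mean level, miRNAs sharing a seed, miR-205 and the tested marker miRNAs; those named for likeness with TMM and the untested marker miRNAs were named after their values were seen. The members and lists were chosen with earlier results of these data known.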

Additional observations from a re-analysis of the deposited data

How the results depend on the processing

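The log2 fold change of miR-31 was positive in all 23 alternatives, from 0.29 to 1.17 (0.32 to 1.17 when each library was left out), and passed FDR 0.05 by limma in 1 of them, without LO replicate 2 (1.17, FDR 0.0233). That of miR-21 passed in none and was below 0 in 11. The scalings moved all miRNAs together, with the median at 0.29 as deposited, 0.05 with TMM and 0.01 with DESeq2 size factors, and miR-21 held place 63 of 104 by log2 fold change in all 3 of these fits. It was -0.12 with TMM, -0.16 with DESeq2 size factors, -0.10 in edgeR and -0.12 in DESeq2, and ran from -0.30 to 0.71 when each library was left out (-0.03 without LO replicate 3 and -0.04 without SO replicate 3). With TMM and a library left out it ran from -0.24 to 0.07 (-0.18 without LO replicate 3, -0.23 without SO replicate 2, -0.19 without SO replicate 3). The number of miRNAs past FDR 0.05 was 2 in edgeR, 18 without LO replicate 2 and 7 with TMM without LO replicate 2, and 0 in the other 20 alternatives.

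The r of miR-21 with miR-31 was 0.61 with listed miRNA reads, 0.41 when these left out miR-205, 0.018 with TMM and -0.22 with DESeq2 size factors. It ran from 0.68 to 0.88 when each library was left out, with an exact p under 0.05 in none, and from -0.21 to 0.25 with TMM (0.20, -0.011, 0.034 and -0.16 without LO replicates 2 and 3 and SO replicates 2 and 3). That of miR-21 with miR-202 ran from 0.91 to 0.99 over 16 alternatives, with an exact p of 0.0583 for the lowest (TMM without SO replicate 1). The ratio of miR-31 to miR-21 kept its direction in all 8 alternatives (0.45 to 0.83 on the log2 scale), as did the summed share of the pair. That share of listed miRNA reads averaged 2.13% (SD 0.74) across LO libraries, against 1.55% (SD 0.30) for SO libraries. Its difference of 0.587 percentage points was not separated from the spread between libraries (exact permutation p = 0.3, smallest possible 0.1). The difference was 0.185 when LO replicate 1 was left out and 0.912 when LO replicate 2 was. The causes were not tested.

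Same-numbered LO and SO libraries did not deviate together (correlations of deviations -0.340, -0.222 and 0.0802). With 3 libraries in a group this cannot tell whether they shared a collection or a batch, which the labels do not say. With the replicate number as a block miR-21 stayed at 0.13 (limma FDR 0.940) and miR-31 at 0.71 (limma FDR 0.853), with 0 calls, r of the pair was 0.86, and the log2 ratio differed by 0.59. Depth limited LO replicate 2 most, where 47 reads of miR-21 give a counting error of 14.6%.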
